A study of Mus musculus with 12 samples.

Results

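Total mRNA of adult mouse neural stem cells (NSCs) was compared between cultures kept in high and in medium folic acid. The comparison takes the 2 total mRNA libraries labelled HF (80 µM folic acid) and the 2 labelled MF (10 µM), 4 of the 12 libraries in the series, and all genes. The other libraries are total mRNA of LF (1.5 µM) and polysome mRNA, the fraction carried by several ribosomes, of all 3 doses, with 2 libraries in each group. The cells were isolated from the subventricular zone of the lateral ventricles of WT male C57BL/6 mice aged 6 to 8wk. Every group, MF included, grew as a monolayer on poly-ornithine and laminin in DMEM/F12 with B27, epidermal growth factor and basic fibroblast growth factor. The dose was held for 4 days, so the data describe growing cells in culture and not the brain of a treated animal. The labels call the replicates biological but do not say whether they came from separate animals or cultures, and p-values therefore measure only the spread between these libraries.

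Folic acid is the vitamin form of folate, which carries single carbon units for the synthesis of purines and thymidylate and for the remethylation of homocysteine to methionine. Methionine in turn feeds S-adenosylmethionine, the donor for methylation of DNA, RNA and protein. NSCs of the subventricular zone are glia-like cells that express astroglial genes such as Slc1a3 and Fabp7, stay in contact with vessels and with matrix rich in laminin and tenascin, and answer to Hedgehog, Notch, Wnt and BMP signals.

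The 4 libraries held between 20506797 and 23089647 counts, and the share of mitochondrial mRNAs was 2.98% and 2.97% in HF, against 2.74% and 2.92% in MF. All 9 NSC markers examined were above 1 TPM (a transcript level corrected for gene length and depth) in each of the 4 libraries. Nes, which encodes the intermediate filament nestin, had 469 and 437 TPM in HF, against 431 and 412 TPM in MF, and the stem cell factor Sox2 had 114 and 106 TPM in HF, against 100.4 and 107 TPM in MF. Among markers of other cells, Aif1, Cx3cr1 and C1qa of microglia and Cldn5 of endothelium were listed at 0 in all 4 libraries, and the 4 endothelial markers did not exceed 0.9 TPM. Gfap of astrocytes, Rbfox3 of neurons and Sox10 and Mog of oligodendrocytes stayed under 1 TPM. Some markers shared with mesenchymal and mural cells were present, with Col1a2 between 205 and 285 TPM, while Col1a1, Rgs5, Kcnj8 and Myh11 stayed under 1 TPM. On the first principal component of the 6 total mRNA libraries (27.2% of the variance), the LF libraries lay at -9.1 and -20.5, the MF libraries at 4.79 and -4.09, and the HF libraries at 17.2 and 11.7.

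Few mRNAs passed the test between HF and MF, and most of those that did had small folds. Of 13912 genes tested with edgeR's quasi-likelihood test, 12 were called (0.0863%), meaning that the adjusted p was under 0.05 and the fold above 1.2. Of these 4 rose in HF and 8 fell. The 8 that fell were Ptch1, Tenm4, Col8a1, Slit3, Prdm1, Peg3, Islr and Adgra2, at folds between 1.21 and 1.4. Of those that rose, Ednrb was well expressed and the other 3 are predicted genes with few counts. An unadjusted p under 0.05 was reached by 574 genes that were lower in HF (4.13%) and 397 that were higher (2.85%), and the median over all genes tested was log2 0.00. The LF libraries entered the fit only through the shared estimate of the spread. Without LF replicate 1 the count was 40 and without LF replicate 2 it was 34. Leaving out either MF library or HF replicate 1 gave 0, and leaving out HF replicate 2 gave 97. In all 8 genes that fell, HF replicate 1 was lower than HF replicate 2. Levels below are CPM, counts scaled to the depth of each library by TMM and not corrected for gene length.

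**Figure D1:**
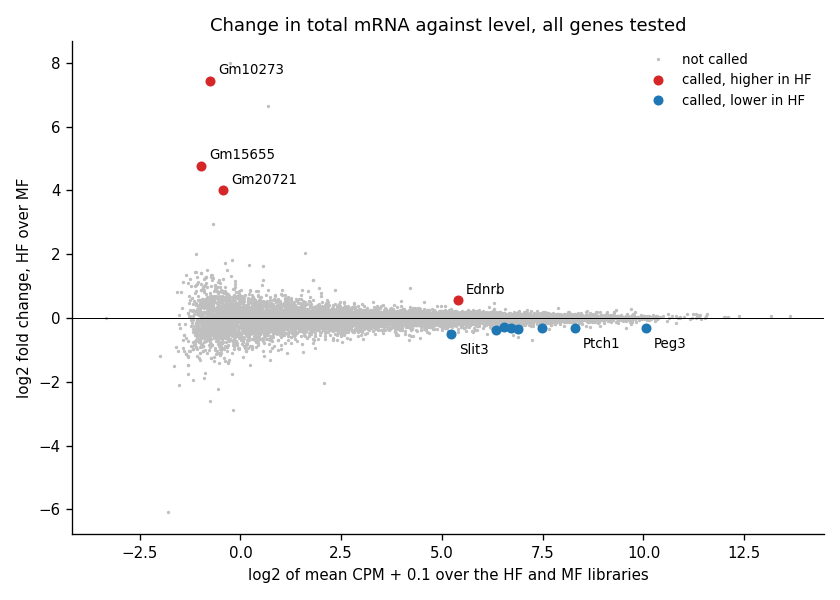
Log2 fold change of HF over MF in total mRNA (vertical) against the log2 of the mean CPM + 0.1 (horizontal) for all 13912 genes tested, with the 4 called genes that were higher in HF in red and the 8 that were lower in blue. Ednrb and the 8 genes that fell lie at moderate to high levels with small changes, and Gm10273, Gm15655 and Gm20721 lie at the low end with large fitted changes.

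Ednrb encodes the endothelin receptor B, a G protein coupled receptor known for its roles in neural crest cells and in astroglia. It had 51.4 and 48.3 CPM in HF, against 35.2 and 32.9 CPM in MF, and the 2 LF libraries had 29.2 and 28.5 CPM. Both HF libraries lay above all others. The change was 1.47-fold (log2 0.55 ± 0.071 SE, adjusted p = 0.0033), and its value stayed between log2 0.50 and 0.60 with each library left out in turn. The gene lies on chromosome 14 from 103814625 to 103844402 (mm10, minus strand). Among the 6 tested genes of the endothelin pathway, Ednrb was the only one called. The ligand gene Edn1 had 1.17 and 1.41 CPM in HF, against 2.18 and 2.91 in MF (log2 -0.98 ± 0.281 SE, adjusted p = 0.28). In polysome mRNA, described further on, Edn1 stood higher and rose in HF, with 23.6 and 23.5 CPM in polysome HF, against 8.79 and 12.1 in polysome MF (log2 1.17 ± 0.182 SE, adjusted p = 0.0062). The other receptor gene, Ednra, had log2 -0.30 and Ece1, which encodes a converting enzyme, had -0.01. In total mRNA the ligand gene and the other receptor gene thus had values of the opposite sign to Ednrb, and neither passed.

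**Figure D2:**
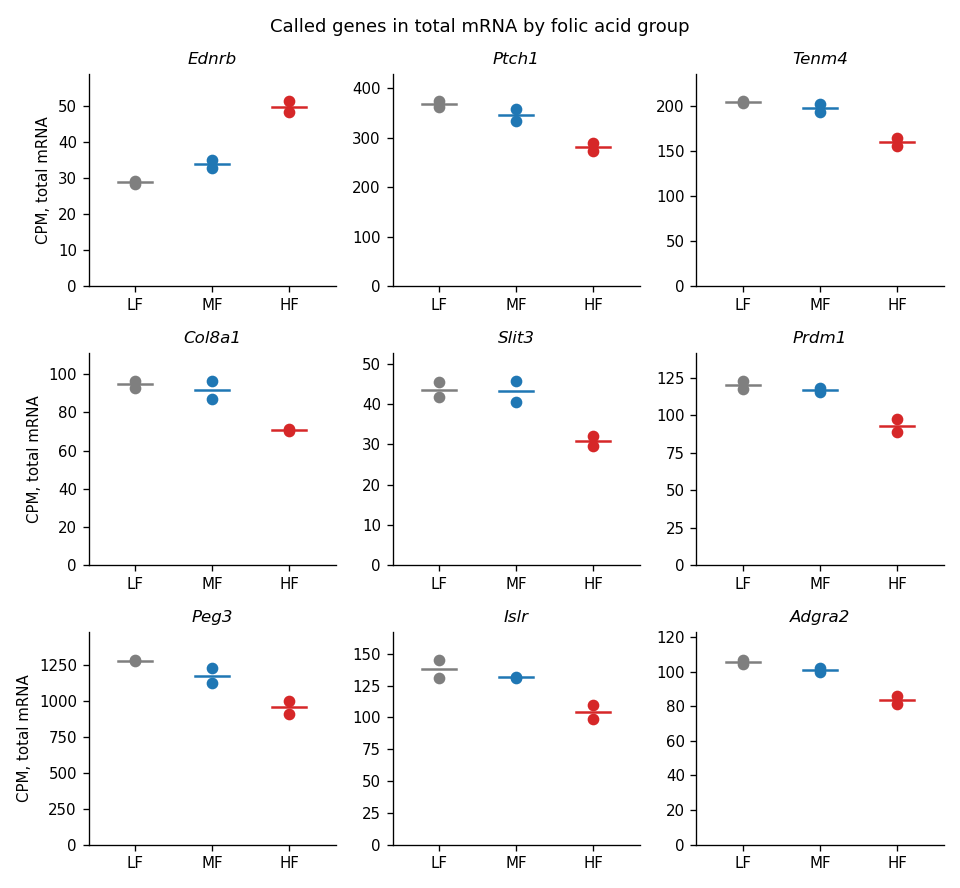
CPM in total mRNA (vertical, from 0) of 9 of the called genes in each of the 2 libraries (points) of LF, MF and HF (horizontal, low to high dose), with bars at the group means. In every panel the 2 HF points lie apart from the 2 MF points, above them for Ednrb (51.4 and 48.3 CPM, against 35.2 and 32.9 CPM) and below them for the other 8 genes. The genes were called from these same libraries, so the separation is not a further result.

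Ptch1 encodes the receptor that restrains Hedgehog signalling and is itself induced by the pathway. It had 272 and 288 CPM in HF, against 335 and 359 CPM in MF, with 363 and 374 CPM in LF. It fell 1.24-fold (log2 -0.31 ± 0.048 SE, adjusted p = 0.0135). Of the 16 tested Hedgehog genes it was the only one called, and the median of the list was log2 -0.05. Gli1, a transcription factor gene likewise known to be induced by Hedgehog signals, had 12.5 and 13.1 CPM in HF, against 15.6 and 15.3 in MF (log2 -0.27 ± 0.119 SE, adjusted p = 0.662), and it did not pass the test. The signal transducer Smo and the transcription factors Gli2 and Gli3 had log2 -0.05, -0.11 and 0.00. Some members lay on the other side, the co-receptor gene Cdon (log2 0.17 ± 0.045 SE, adjusted p = 0.212) and the ligand gene Dhh (log2 0.23 ± 0.073 SE, adjusted p = 0.385). The values of the induced genes, the transducers and the upstream members therefore differed in sign, and of these only that of Ptch1 passed.

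Slit3 and Tenm4 encode proteins of cell and axon guidance. Slit3, a secreted ligand of Robo receptors, had 29.6 and 32.1 CPM in HF, against 40.6 and 45.9 CPM in MF. It fell 1.4-fold (log2 -0.49 ± 0.079 SE, adjusted p = 0.0158), the largest fold among the 8 genes that fell. The related ligand genes Slit1 and Slit2 had log2 0.00 and -0.13, and the receptor genes Robo1 and Robo2 had -0.12 and 0.25, none of them called. Tenm4, a large transmembrane teneurin, had 156 and 165 CPM in HF, against 193 and 203 in MF (log2 -0.31 ± 0.048 SE, adjusted p = 0.0135). Tenm1 and Tenm3 had log2 0.12 and 0.01. Of 9 tested genes of teneurins and latrophilins, 6 had values above 0 and 3 below. Of these 3, 2 were lower at an unadjusted p under 0.05. The lowest value, log2 -0.39, belonged to a gene other than Tenm4. Apart from Tenm4, none of the 9 was called.

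Among semaphorins, plexins, ephrins and netrins no gene was called in 48 tested. At an unadjusted p under 0.05, 10 were lower and 2 higher, and the median was log2 -0.07. The receptor tyrosine kinase gene Epha2 had 29.5 and 30.2 CPM in HF, against 38.1 and 36.5 in MF (log2 -0.32 ± 0.073 SE, adjusted p = 0.119). The semaphorin co-receptor gene Nrp1 had log2 -0.18 (adjusted p = 0.212). Sema3a, a secreted ligand that signals through that co-receptor, lay on the other side with 21.1 and 16.4 CPM in HF, against 13.4 and 12.6 in MF (log2 0.53 ± 0.12 SE, adjusted p = 0.12).

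Many genes of the extracellular matrix had values below 0, most of them short of the threshold. Col8a1, a short-chain collagen of vessel walls and basement membranes of the eye, was called. It had 70.3 and 71.6 CPM in HF, against 87.3 and 96.7 in MF (log2 -0.38 ± 0.059 SE, adjusted p = 0.0135). Of 26 collagen chains tested, 20 had values below 0, 9 of them at an unadjusted p under 0.05, and none was higher at that p. The median was log2 -0.16. Fn1, which encodes the matrix glycoprotein fibronectin, had 437 and 457 CPM in HF, against 524 and 533 in MF (log2 -0.24 ± 0.043 SE, adjusted p = 0.0313). It passed the adjusted p but not the fold threshold, and it was the only such gene.

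Basement membranes are sheets of laminin and type IV collagen, tied together by nidogen and perlecan, and they line vessels and extend into the stem cell niche. Of 17 tested basement membrane genes 16 had values below 0, and 11 were lower at an unadjusted p under 0.05, against 4.13% of all genes tested. None was called and none was higher at that p. In 13 both HF libraries lay below both MF libraries, against 2667 of all 13912 genes tested. The median of the 17 was log2 -0.14, and over the alternatives of scaling and sample set it stayed between -0.19 and -0.14. The members included genes of perlecan, nidogen, laminin and type IV collagen, but not every chain. Col4a6, given in the next paragraph, was not in the list. The 1 member above 0 had log2 0.43. Hspg2, the perlecan gene, had 154 and 168 CPM in HF, against 196 and 191 in MF (log2 -0.27 ± 0.058 SE, adjusted p = 0.119). Nid2, a nidogen gene, had 47.1 and 52.1 CPM in HF, against 59.1 and 64.3 in MF (log2 -0.32 ± 0.085 SE, adjusted p = 0.295). The laminin chain genes Lama4, Lama5, Lamb1, Lamb2 and Lamc1 had log2 -0.20, -0.14, -0.12, -0.14 and -0.13.

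Type IV collagen is built from 6 chains, encoded by gene pairs that start back to back on opposite strands. In the pair Col4a1 and Col4a2, which encodes the common network of most basement membranes, both genes were lower in HF. Col4a1 had 346 and 393 CPM in HF, against 452 and 446 in MF (log2 -0.28 ± 0.055 SE, adjusted p = 0.0785). Col4a2 had 97.4 and 112 CPM in HF, against 132 and 130.02 in MF (log2 -0.32 ± 0.06 SE, adjusted p = 0.0511). The HF and MF libraries did not overlap in either gene, which was also a condition for naming them among the next genes. Neither passed in edgeR with the LF libraries. Both passed when only the HF and MF libraries were fitted (adjusted p = 0.016 for Col4a1 and 0.0154 for Col4a2) and with DESeq2 (adjusted p = 0.0061 and 0.0253). The pair Col4a5 and Col4a6 did not show this. Col4a5 had 275 and 259 CPM in HF, against 268 and 271 in MF (log2 -0.01 ± 0.047 SE), and Col4a6 had 138 and 132 CPM in HF, against 128 and 124 in MF (log2 0.10 ± 0.058 SE). Of the third pair, Col4a4 stood at about 2 CPM and Col4a3 did not pass the filter on low counts. The start sites of Col4a1 (minus strand) and Col4a2 (plus strand) in RefSeq overlap, so that both genes begin within 22 bases of chromosome 8. The stretch is shown because the 2 genes that start in it had like values, with the bases between and including both start sites in capitals.
Col4a1 and Col4a2, chr8:11312801-11312830 (GRCm38.p6, plus strand): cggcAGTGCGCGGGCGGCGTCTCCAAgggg

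**Figure D3:**
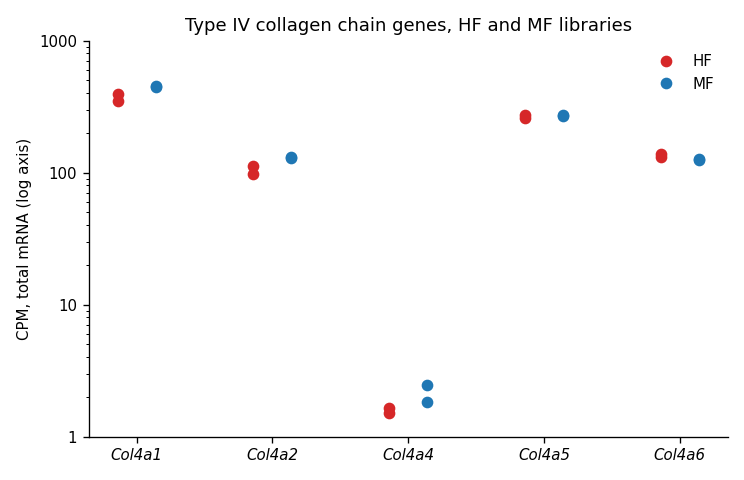
CPM in total mRNA (vertical, log axis) of the 5 tested type IV collagen chain genes, with each of the 2 HF libraries (red, left) and 2 MF libraries (blue, right) as a point. The HF points lie below the MF points for Col4a1 (346 and 393 CPM, against 452 and 446 CPM) and Col4a2, overlap them for Col4a5 and lie slightly above them for Col4a6.

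Matrix genes characteristic of the neural niche lay on the other side. Of 15 tested niche matrix genes 12 had values above 0, with 5 higher and 1 lower at an unadjusted p under 0.05 and none called. The median was log2 0.14, against -0.14 for the basement membrane genes. Over the same alternatives the niche matrix median ran between 0.07 and 0.21. Tnc encodes tenascin-C, which NSCs and astroglia secrete. It had 709 and 675 CPM in HF, against 593 and 559 CPM in MF and 531 and 451 CPM in LF (log2 0.26 ± 0.07 SE, adjusted p = 0.337), and was called when only the HF and MF libraries were fitted (adjusted p = 0.0032). Bcan encodes brevican, a proteoglycan of brain matrix, and had 16.5 and 15.2 CPM in HF, against 12.9 and 11.2 in MF (log2 0.40 ± 0.116 SE, adjusted p = 0.306). The related proteoglycan gene Ncan and the hyaluronan receptor gene Cd44 had log2 0.14 and 0.16. Of the 3 genes below 0, only Vcan, the versican gene, had an unadjusted p under 0.05 (log2 -0.12, adjusted p = 0.604).

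Genes known as markers of fibroblasts, mural cells and contractile cells mostly had lower values in HF. Islr, a secreted protein of mesenchymal stroma, was called, with 99.1 and 110.0 CPM in HF, against 131 and 132 in MF (log2 -0.33 ± 0.059 SE, adjusted p = 0.0335). Of 13 fibroblast markers tested 11 had values below 0, 7 at an unadjusted p under 0.05. In 10 the HF libraries lay below the MF libraries, against 2667 of all 13912 genes tested. The median of these markers was log2 -0.33, and it stayed between -0.41 and -0.24 over the alternatives. The summed level of all 18 fibroblast markers was 659.9 and 715.9 TPM in HF, against 807.7 and 814.1 TPM in MF. Lum, a small proteoglycan gene, had 0.783 and 1.02 CPM in HF, against 2.04 and 2.39 in MF (log2 -1.30 ± 0.321 SE, adjusted p = 0.166). Fbln5, an elastic fibre gene, had 14.3 and 19.9 CPM in HF, against 24.5 and 28.3 in MF (log2 -0.64 ± 0.146 SE, adjusted p = 0.246). Ogn, which encodes the matrix proteoglycan osteoglycin, had 27.1 and 35.5 CPM in HF, against 42.2 and 47.7 in MF (log2 -0.53 ± 0.126 SE, adjusted p = 0.322). With DESeq2, the tool the study used, both were lower past the threshold (adjusted p = 0.0449 for Fbln5 and 0.0296 for Ogn). The study named Fbln5 and Ogn as lower in HF, with Ptch1, Col8a1, Slit3 and Acta2, and Ednrb as higher. It reports that RT-qPCR, a separate measure of RNA, bore out the genes it named. In these bulk libraries, fewer cells of a type and less RNA per cell cannot be told apart. The part of such cells in the values of Islr, Col8a1 and the collagens was not tested.

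For mural cells, 6 of 13 markers passed the filter on low counts, and their median was log2 -0.27. Rgs5, Kcnj8 and Myh11, which define pericytes and smooth muscle, were under 1 TPM in all 4 libraries. Pdgfrb, the PDGF receptor gene of mural and mesenchymal cells, had 42.1 and 50.7 CPM in HF, against 59.99 and 62.4 in MF (log2 -0.40 ± 0.087 SE, adjusted p = 0.161). The summed level of all 13 mural markers was 125.2 and 141.2 TPM in HF, against 162.1 and 167.6 TPM in MF. Of 17 contractile genes, which respond to the transcription factor SRF, 16 had values below 0, and at an unadjusted p under 0.05 there were 6 lower and 1 higher. Smooth muscle actin, Acta2, had 26.7 and 35.9 CPM in HF, against 43.0 and 47.7 in MF (log2 -0.54 ± 0.148 SE, adjusted p = 0.478). Tagln, a smooth muscle actin-binding protein gene, had log2 -0.43 ± 0.112 SE (adjusted p = 0.255), and Actn1, the alpha-actinin gene, had log2 -0.33 ± 0.064 SE (adjusted p = 0.0926). DESeq2 passed Acta2 and Actn1 (adjusted p = 0.037 and 0.0064). Actb, the cytoskeletal actin gene, had log2 0.02 ± 0.043 SE. For Acta2, Pdgfrb, Fbln5 and Actn1, HF replicate 1 lay lower than HF replicate 2, as in the 8 genes that fell.

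**Figure D4:**
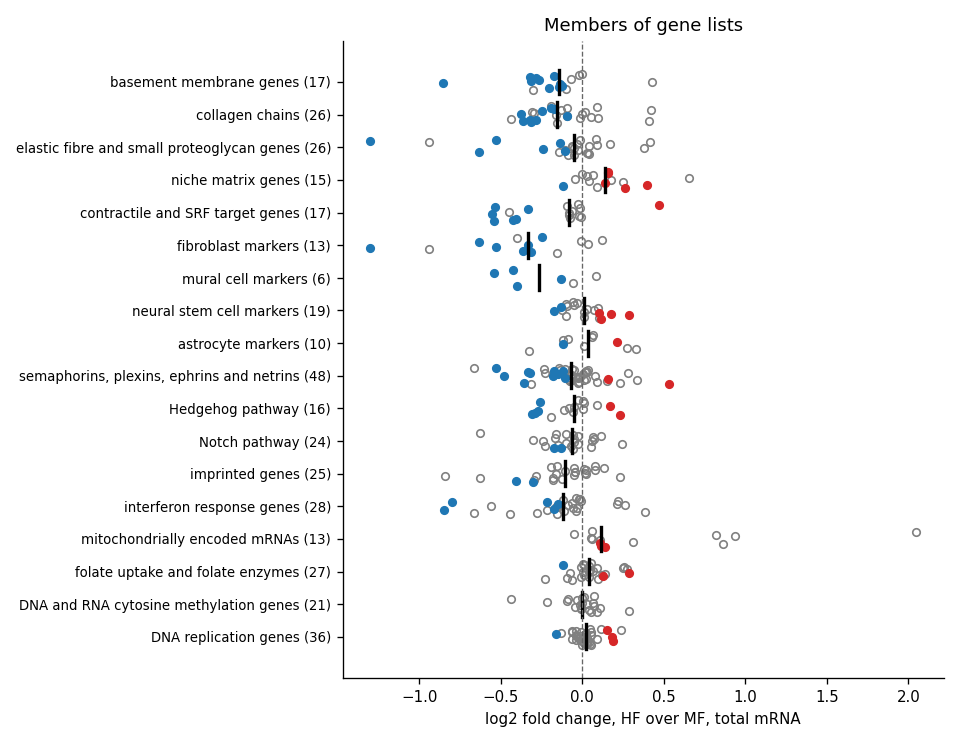
Log2 fold change of HF over MF in total mRNA (horizontal) for every tested member of 18 gene lists (rows, with the number tested). Filled points have an unadjusted p under 0.05 (red higher, blue lower in HF), open points do not, black bars are list medians and the dashed line is the median of all genes tested. Basement membrane genes centre at -0.14 and niche matrix genes at 0.14, while genes of DNA and RNA cytosine methylation centre at 0.

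Peg3, a zinc finger gene expressed from the paternal allele, was the most abundant of the called genes. It had 909 and 999 CPM in HF, against 1122 and 1226 CPM in MF and 1285 and 1273 CPM in LF (log2 -0.30 ± 0.051 SE, adjusted p = 0.0313). Zim1, its neighbour in the same imprinted domain, had 39.8 and 43.6 CPM in HF, against 53.1 and 57.2 in MF (log2 -0.40 ± 0.09 SE, adjusted p = 0.168) and was called in the fit of only the HF and MF libraries (adjusted p = 0.0039). Usp29, which starts back to back with Peg3, stood at about 1 CPM and its value of log2 -0.30 ± 0.352 SE did not pass. Of 25 imprinted genes tested Peg3 was the only one called, 17 had values below 0, and the median was log2 -0.11. Peg3 and Zim1 were the 2 members below an unadjusted p of 0.05. In RefSeq 163 bases separate the starts of Peg3 (minus strand) and Usp29 (plus strand). The 146 of them that also lie outside both genes in GENCODE are shown as the shared upstream region of this domain, with each CG dinucleotide, the target of DNA methylation, in capitals. It holds 5, or 3.4 per 100 bases, against a median of 2.33 per 100 bases over the 300-base promoter windows of 32851 RefSeq genes. The stretch is shorter than these windows, and its DNA methylation was not examined here.
Peg3 and Usp29, chr7:6730432-6730577 (GRCm38.p6, plus strand): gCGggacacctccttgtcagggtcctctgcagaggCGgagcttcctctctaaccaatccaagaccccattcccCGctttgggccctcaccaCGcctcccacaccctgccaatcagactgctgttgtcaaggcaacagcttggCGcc

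The remaining named genes that fell were Prdm1 and Adgra2. Prdm1 encodes the transcriptional repressor BLIMP1 and had 88.6 and 97.4 CPM in HF, against 115 and 118 in MF (log2 -0.33 ± 0.056 SE, adjusted p = 0.022). Adgra2, an adhesion receptor that acts with Reck in Wnt7 signalling, had 81.3 and 85.8 CPM in HF, against 102 and 100.2 in MF (log2 -0.28 ± 0.053 SE, adjusted p = 0.0493). Adgra2 stood closest to the threshold and was not called with other size factors, DESeq2 or limma voom. Its partner gene Reck had log2 -0.29 ± 0.115 SE (adjusted p = 0.635). Of 28 Wnt pathway genes tested Adgra2 was the only one called, with a median of log2 -0.04.

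The other 3 genes that rose are uncertain. Gm10273, a predicted protein-coding gene on chromosome 10, had 43 counts over the HF libraries and 0 over the MF and the LF libraries of total mRNA. Against a floor of 3 counts over the MF group it was at least 13.8-fold higher in HF. In polysome mRNA, Gm10273 was not at 0 in any library. It had 42.8 and 72.2 CPM in polysome LF, 1.56 and 1.4 CPM in polysome MF, and 2.93 and 8.14 CPM in polysome HF. Gm15655 had 35 counts over the HF libraries, against 1 over the MF libraries and 27 over the LF libraries, and is annotated as antisense to Maf. Gm20721 had 54 counts over the HF libraries, against 3 over the MF libraries, and lies on the opposite strand within Gnas. The 3 stood at or below 1.52 CPM in every total library. RSEM divides reads among near-identical or overlapping genes, and the part of this in the 3 values was not tested. None of the 3 was called by DESeq2. Rpl14-ps1, a pseudogene copy of a ribosomal protein gene that the study named, is uncertain in the same way and had log2 0.47 ± 0.124 SE (adjusted p = 0.462, and 0.0099 with DESeq2).

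**Figure D5:**
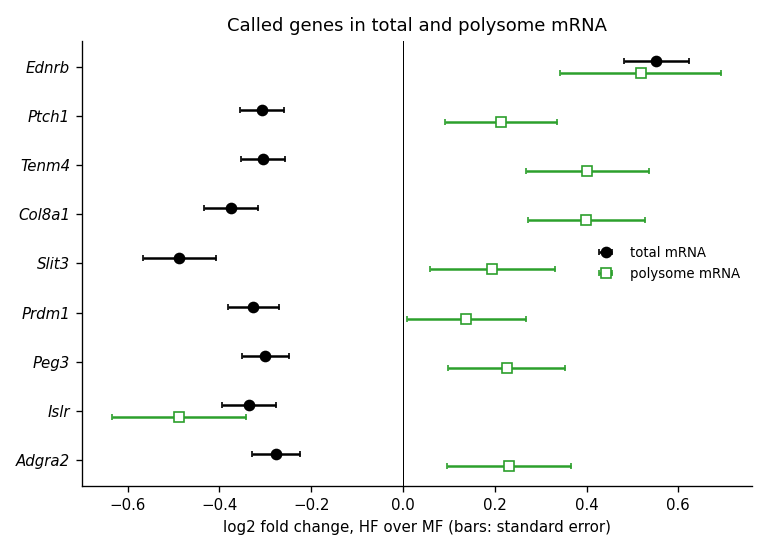
Log2 fold change of HF over MF (horizontal) with its standard error for 9 called genes (rows), in total mRNA (black circles) and in polysome mRNA (green squares), from 2 libraries a group. Ednrb lies near 0.5 in both fractions and Islr lies below 0 in both, while the other 7 genes lie below 0 in total mRNA and above 0 in polysome mRNA.

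The polysome libraries gave a second readout of the same genes, in which 707 of 13243 genes were called (5.34%) when HF was compared with MF. That count ranged from 0 in a fit of all 6 polysome libraries to 1657 without polysome HF replicate 1, and calls from it are correspondingly loose. Ednrb had 15.4 and 16.2 CPM in polysome HF, against 9.88 and 12.2 CPM in polysome MF (log2 0.52 ± 0.176 SE, adjusted p = 0.101). Of the 12 genes called in total mRNA, 11 were tested in polysome mRNA and only Gm10273 was called there (log2 1.90 ± 0.447 SE, adjusted p = 0.0452). Without polysome HF replicate 2 its value was log2 0.99 (adjusted p = 0.206). Of the 8 genes that fell in total mRNA, none was called in polysome mRNA, 7 had values above 0 there and Islr had log2 -0.49 (adjusted p = 0.0674). Col8a1 had 71.1 and 78.6 CPM in polysome HF, against 53.03 and 60.4 CPM in polysome MF, and Tenm4 had 155 and 195 CPM, against 130 and 135 CPM. The difference between the change in polysome and that in total mRNA was tested in the 8 HF and MF libraries, where 217 of 14243 genes were called (1.52%). Among the 8 genes it was called for Col8a1 (log2 0.77 ± 0.139 SE, adjusted p = 0.0269), Tenm4 (0.70 ± 0.148, adjusted p = 0.0395) and Slit3 (0.68 ± 0.153, adjusted p = 0.0493). It missed the threshold for Ptch1 (log2 0.52 ± 0.121 SE, adjusted p = 0.0547) and Peg3 (log2 0.52 ± 0.139 SE, adjusted p = 0.0823). These differences use the same total libraries in which the 8 genes were found to be lower, and none was called when any of those 4 libraries was left out or when all 12 libraries were fitted.

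In polysome mRNA the fibroblast and contractile lists lay on the other side of 0, while other matrix lists did not. The fibroblast markers had a median of log2 0.36 in polysome mRNA, against -0.33 in total mRNA, and the contractile genes 0.26, against -0.08, while the medians of all genes tested were near 0 in both. Fbln5 had log2 0.96 (adjusted p = 0.0031) and Acta2 0.76 (adjusted p = 0.0096) in polysome mRNA, both called higher in HF. Of 25 collagen chains tested there, 16 had values below 0 and none was called, with a median of log2 -0.05. Among 25 elastic fibre and small proteoglycan genes 8 were called lower and 3 higher. Of all 13243 genes tested in polysome mRNA, 411 were called lower and 296 higher (5.34% together). Emilin1, which encodes a glycoprotein of elastic fibres, fell to 100.6 and 115 CPM in polysome HF, against 173 and 159 CPM in polysome MF (log2 -0.62 ± 0.126 SE, adjusted p = 0.0162, and 0.115 without polysome MF replicate 1). The basement membrane genes had a median of log2 -0.07 there, with 3 called higher and none lower. Among them Lama4 rose (log2 0.55, adjusted p = 0.0347), while Hspg2, Nid2, Col4a1 and Col4a2 had log2 -0.49, -0.18, -0.14 and -0.07 without passing. The niche matrix genes had a median of log2 0.22 with 2 called lower, Bcan at log2 -0.83 (adjusted p = 0.0417) and Ncan at -0.57 (adjusted p = 0.0246). In the fit of all 6 polysome libraries none of these genes was called.

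Of 19 markers of NSCs and radial glia tested, 10 had values above 0 and 9 below, and none was called. Fabp7, a brain fatty acid binding protein gene, had 977 and 853 CPM in HF, against 760 and 738 CPM in MF and 662 and 695 CPM in LF (log2 0.29 ± 0.056 SE, adjusted p = 0.0823, and 0.0013 with DESeq2). Slc1a3, the glial glutamate transporter gene, had 516 and 510 CPM in HF, against 461 and 448 in MF (log2 0.17 ± 0.043 SE, adjusted p = 0.165). Of these markers 4 were higher and 2 lower with an unadjusted p under 0.05, against 2.85% and 4.13% of all genes, and the median was log2 0.01. The lower ones were Fgfr1 (log2 -0.13), a receptor for the growth factor in the medium, and Msi1 (log2 -0.17), an RNA-binding protein gene. Nes had log2 0.12 (adjusted p = 0.638) and Sox2 0.10 (adjusted p = 0.771).

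Other genes that stood higher in HF were called in the fit of only the HF and MF libraries, which called 34 of 13726 genes (0.248%), all 12 of the main fit among them. Slc7a11, the cystine and glutamate exchanger gene, had 29.8 and 25.3 CPM in HF, against 19.9 and 19.1 in MF (log2 0.50 ± 0.122 SE, adjusted p = 0.212 with the LF libraries and 0.0154 without). Plat, the tissue plasminogen activator gene, had 270 and 247 CPM in HF, against 209 and 210.4 in MF (log2 0.30 ± 0.069 SE, adjusted p = 0.212 with and 0.0032 without, and 0.025 with DESeq2). Vav3, a guanine nucleotide exchange factor gene, had 86.3 and 74.4 CPM in HF, against 62.3 and 63.8 in MF (log2 0.35 ± 0.068 SE, adjusted p = 0.0683 with and 0.0169 without). Among genes lower in HF this fit added Epb41l3, a membrane skeleton gene (log2 -0.37), Lxn, a carboxypeptidase inhibitor gene (-0.26), F11r, a tight junction adhesion gene (-0.37), and Cd248, a stromal surface receptor gene (-0.31). The fit has fewer libraries to estimate the spread from, and it leaves out the LF libraries, whose replicates differed more.

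Further genes with small p that did not pass came from metabolism and signalling. Mt3, a metallothionein gene of the brain, had 185 and 199.6 CPM in HF, against 224 and 227 in MF (log2 -0.23 ± 0.048 SE, adjusted p = 0.0785, and 0.0498 with DESeq2). Irs1, which encodes an adaptor of insulin receptor signalling, had 108 and 116 CPM in HF, against 134 and 132 in MF (log2 -0.24 ± 0.051 SE, adjusted p = 0.0785), and Pcolce, whose product aids procollagen processing, had log2 -0.24 (adjusted p = 0.0785). On the higher side stood Dbi, the acyl-CoA binding protein gene, with log2 0.18 ± 0.045 SE (adjusted p = 0.173), the interferon receptor gene Ifnar1 with 0.19 ± 0.047 (adjusted p = 0.161) and the adenylyl cyclase gene Adcy3 with 0.50 ± 0.127 (adjusted p = 0.187). The rule that named these 6 genes required HF and MF libraries without overlap. Of all 13912 genes tested, 2637 had both HF libraries above both MF libraries and 2667 had both below.

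No change was detectable in the genes that handle folate. Of 27 tested genes of folate uptake and folate enzymes none was called, 2 were higher and 1 was lower at an unadjusted p under 0.05, and the median was log2 0.04. The carrier gene Slc19a1 had 8.53 and 8.72 CPM in HF, against 9.21 and 8.78 in MF (log2 -0.06 ± 0.129 SE). Mthfd2l, a mitochondrial enzyme gene, had 17.5 and 18.2 CPM in HF, against 13.8 and 15.4 in MF (log2 0.29 ± 0.11 SE, adjusted p = 0.579). For the methionine cycle the median was log2 0.02 over 12 genes, for purine synthesis -0.03 over 15 and for pyrimidine synthesis 0.02 over 15.

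No gene of DNA and RNA cytosine methylation had an unadjusted p under 0.05 among the 21 tested, and the median was log2 0.00. Dnmt1, the maintenance DNA methyltransferase gene, had 321 and 329.8 CPM in HF, against 313 and 315 in MF (log2 0.05 ± 0.045 SE). The RNA methyltransferase gene Nsun2 had log2 0.07 ± 0.05 SE and Trdmt1 had 0.00 ± 0.124. Lists of cell growth had medians near 0 in total mRNA. The median was log2 0.02 over 36 DNA replication genes, 0.01 over 30 mitosis genes, 0.01 over 23 sterol synthesis genes and 0.01 over 76 cytosolic ribosomal protein genes, and none of their members was called. At an unadjusted p under 0.05, the replication genes Rfc3, Cdc45 and Orc6 were higher (log2 0.18, 0.19 and 0.15), Pold1 was lower (-0.16), and of the mitosis genes Ccnb1 was higher (0.12). In polysome mRNA, 30 of 30 mitosis genes had values below 0 (median log2 -0.32, 7 called lower). So had 33 of 36 DNA replication genes (3 called lower), 18 of 23 sterol synthesis genes (6 called lower) and 29 of 76 ribosomal protein genes (2 called lower, 1 higher). Dnmt1 was called lower there (log2 -0.64, adjusted p = 0.0471). Of all 13243 genes tested there 411 were called lower, and none in the fit of all 6 polysome libraries.

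Several small shifts remained. Interferon response genes had values below 0 in 24 of 28 tested, a median of log2 -0.12 and 5 members lower at an unadjusted p under 0.05. Notch pathway genes had a median of log2 -0.06, with Notch2 at 320 and 353 CPM in HF, against 376 and 383 in MF (log2 -0.17 ± 0.048 SE, adjusted p = 0.26). Mitochondrially encoded mRNAs had values above 0 in 12 of 13 and a median of log2 0.11. For mt-Nd1, a complex I subunit, the libraries had 2634 and 2628 CPM in HF, against 2305 and 2477 in MF (log2 0.14 ± 0.044 SE, adjusted p = 0.385). MF replicate 1 had the lowest mitochondrial share of the 4 libraries, and its part in these values was not tested. None of these lists had a called member.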

How the data were processed

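For each library the authors deposited expected counts and TPM per gene, made with RSEM 1.3.0 and Bowtie2 2.2.9 on mm10. RSEM splits reads that fit several genes by likelihood, so the counts were rounded to whole numbers. The deposited TPM values served for cell markers and summed levels. The strand setting is not given in the sources used here. Of 43432 identifiers, 97.96% matched GENCODE M21. The authors' FPKM were not used.

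The gene tests ran in edgeR 4.0.16 under R 4.3.3 (filterByExpr, TMM, robust quasi-likelihood F test, Benjamini-Hochberg over all genes) and were checked on simulated counts. Fits used the 6 total libraries, the 4 polysome HF and MF libraries, or all 8 HF and MF libraries with an interaction term. Polysome LF was left out because its replicate 2 stood apart. Standard errors were derived from each log2 value and its F. No replicate pair matched within sampling noise (chi-square over degrees of freedom between 2.7 and 4.77 in total mRNA). Without molecular identifiers, counting error understates the true error. Alternatives were RLE size factors, no filter, DESeq2 1.42.0, limma 3.58.1 voom, no robust step, no fold threshold, a replicate block, other sample sets and each library left out.

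Named genes were all called genes, the 10 next protein-coding genes in each direction without overlap and with at least 5 CPM, genes called in the HF and MF libraries alone, genes the study named, and up to 4 members of each of 40 lists by p with those listed at 0, and the cell type markers, of which a selection is printed. Further members were chosen after their values were seen. The comparison and the lists were chosen with earlier results of these data known, and no list was tested. Sequences are from RefSeq on GRCm38.p6. Values of some list members are not reported here.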

Additional observations from a re-analysis of the deposited data

Results flagged for a closer look

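The HF against MF change differed between polysome and total mRNA in 24 of the 173 genes chosen by the naming rule and in Ncan. By the same interaction term of edgeR's quasi-likelihood test, 217 of all 14243 genes tested were called (1.52%). The values are the log2 change in polysome minus that in total mRNA. Among called genes they were 0.70 for Tenm4, 0.77 for Col8a1, 0.68 for Slit3 and -4.72 for Gm20721. Among genes that did not pass in total mRNA they were 0.71 for Fn1, 0.71 for Irs1, an insulin receptor substrate gene, 0.95 for Plxdc2, 0.84 for Pdlim2, 0.82 for Lxn, 1.59 for Fbln5, 1.80 for Rpl14-ps1 and 1.3 for Acta2. Among members of the gene lists they were 2.15 for Edn1, 2.37 for Lum, 1.197 for Tagln, 0.82 for Myl9, a myosin light chain gene, 0.75 for Lama4, 0.91 for Timp3, a metalloprotease inhibitor gene, and 1.65 for Stmn2, a neuronal tubulin-binding protein gene. They were -1.23 for Bcan, -0.72 for Ncan, -0.80 for Dhh, -1.39 for Dcx, a neuroblast gene, -0.71 for Mlc1, an astroglial membrane protein gene, and -0.61 for Aurkb, a mitotic kinase gene. Rpl14-ps1 is a pseudogene copy of Rpl14, and Gm20721 lies opposite Gnas, so both are uncertain. Genes chosen for a small p in total mRNA enter this difference with the same total libraries. Fbln5 was called in 13 of 15 alternatives, Slit3 in 5 and Stmn2 in 4, and none of the genes was called when all 12 libraries were fitted.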

How the results depend on the processing

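Of 2008 values of single genes under the alternatives, 14 had the other sign, all in 6 genes near 0 that were not called. A further 272 lost a call that the main fit had made, and 171 gained a call that it had not. Of 320 list medians under the alternatives, 60 moved by at least the standard deviation between replicates. Trdmt1 had log2 0.00085 with no filter on low counts and 0.000439 with DESeq2, and Slit1 had -0.0090 with limma voom and -0.0019 with a replicate block. With 1 library left out, log2 values ran between -0.058 and 0.030 for Col4a5, -0.034 and 0.061 for Tenm3, -0.066 and 0.039 for Ece1, -0.023 and 0.031 for Gli3, -0.058 and 0.055 for Trdmt1, and -0.162 and 0.157 for Slit1. The count of 12 in total mRNA was 99 with no filter on low counts, 1 without the robust step and 34 in only the HF and MF libraries. Chosen after seeing the data, DESeq2 in only those libraries gave 19. Leaving out 1 library gave 0 to 97, where a lone sample is assumed to vary like the other groups, and the fits with a count of 0 had between 548 and 795 genes at an unadjusted p under 0.05. DESeq2 with the LF libraries called 18, of which 8 were among the 12, and 12 of the named genes that edgeR did not call had an adjusted p under 0.05 with it. With a replicate block the count was 87, and 125 with the block in only the HF and MF libraries, also chosen after seeing the data. The labels do not say whether the replicate numbers pair the samples. Deviations of same-numbered HF and MF libraries had a correlation of 0.001. No pairing was seen, but this value cannot exclude it, because noise between libraries also lowers it. The polysome count of 707 was 1479 with no filter, 0 in all 6 polysome libraries (453 at an unadjusted p under 0.05) and 227 to 1657 with 1 library left out. The count of 217 for the difference between fractions, 43.3% of it upward, was 886 with no filter, 489 with DESeq2 (67.1% upward), 59 with a replicate block, 0 in all 12 libraries (599 at an unadjusted p under 0.05) and 3 to 1472 with 1 library left out. RLE size factors gave 174, 64.4% upward. The causes were not tested. A change under 1.2-fold is never called, by the threshold.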
